A study of Macaca fascicularis with 16 samples.

Results

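The genes described here are those of the smooth muscle contractile apparatus, followed across 16 expression arrays of endometrium from cynomolgus macaques (Macaca fascicularis). The list held 37 names, and a name counted as measured where the annotation of the array gives a probe set that symbol and no other. That was so for 29 of the 37, with MRVI1 listed under its current symbol IRAG1, and all 29 were among the 10706 genes kept by the filter on low signal. The other 8 names, ACTA2, DES, CNN2, MYLK, CSRP1, PLN, PPP1R12B and DMD, had no such probe set here and are not described further. Each gene was read through its brightest probe set.

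The animals were postmenopausal females, 1 array each, randomized in parallel to 4 arms of 4. The control arm received placebo. The estradiol arm received low-dose micronized estradiol at 0.25 mg, the tamoxifen arm tamoxifen at 20 mg, and the combination arm both at these doses, each per 1800 kcal of diet. Tamoxifen is a selective estrogen receptor modulator given against breast cancer. Endometrium was taken after 4 months and frozen. The labels say neither how deep into the uterine wall the pieces reached nor how old the animals were, and the array was designed for the rhesus macaque. Arrays are called here by arm and number, as in estradiol 4. Levels are log2(signal + 4.80), where signal is the deposited intensity and 4.80 the pseudocount, and a difference is one of mean levels on this scale.

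Endometrium lies on the myometrium, a thick layer of smooth muscle, and smooth muscle also surrounds the vessels that run through both. In a smooth muscle cell a rise in calcium activates myosin light chain kinase, and phosphorylated myosin then pulls on thin filaments of smooth muscle actin and tropomyosin. Intermediate filaments, filamins and LIM-domain linkers tie the filaments to dense bodies and to the membrane. Myocardin (MYOCD), a coactivator of serum response factor, drives many of these genes, and the oxytocin receptor (OXTR) is known for its part in uterine contraction.

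Before any comparison of arms, 2 arrays stood apart in these genes. On each array the 29 genes were summarised by the median of their levels minus the mean of the 4 controls. That median was -2.69 in estradiol 4 and -0.85 in tamoxifen 1, and between -0.092 and 0.49 on the other 14 arrays. The summed deposited signal of the 29 genes was 18082 in estradiol 4 and 54376 in tamoxifen 1, against 84564 to 99189 in the controls and 96725 to 108185 in the combination arm. In tissue RNA, fewer smooth muscle cells and less of these transcripts per cell cannot be told apart.

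**Figure D1:**
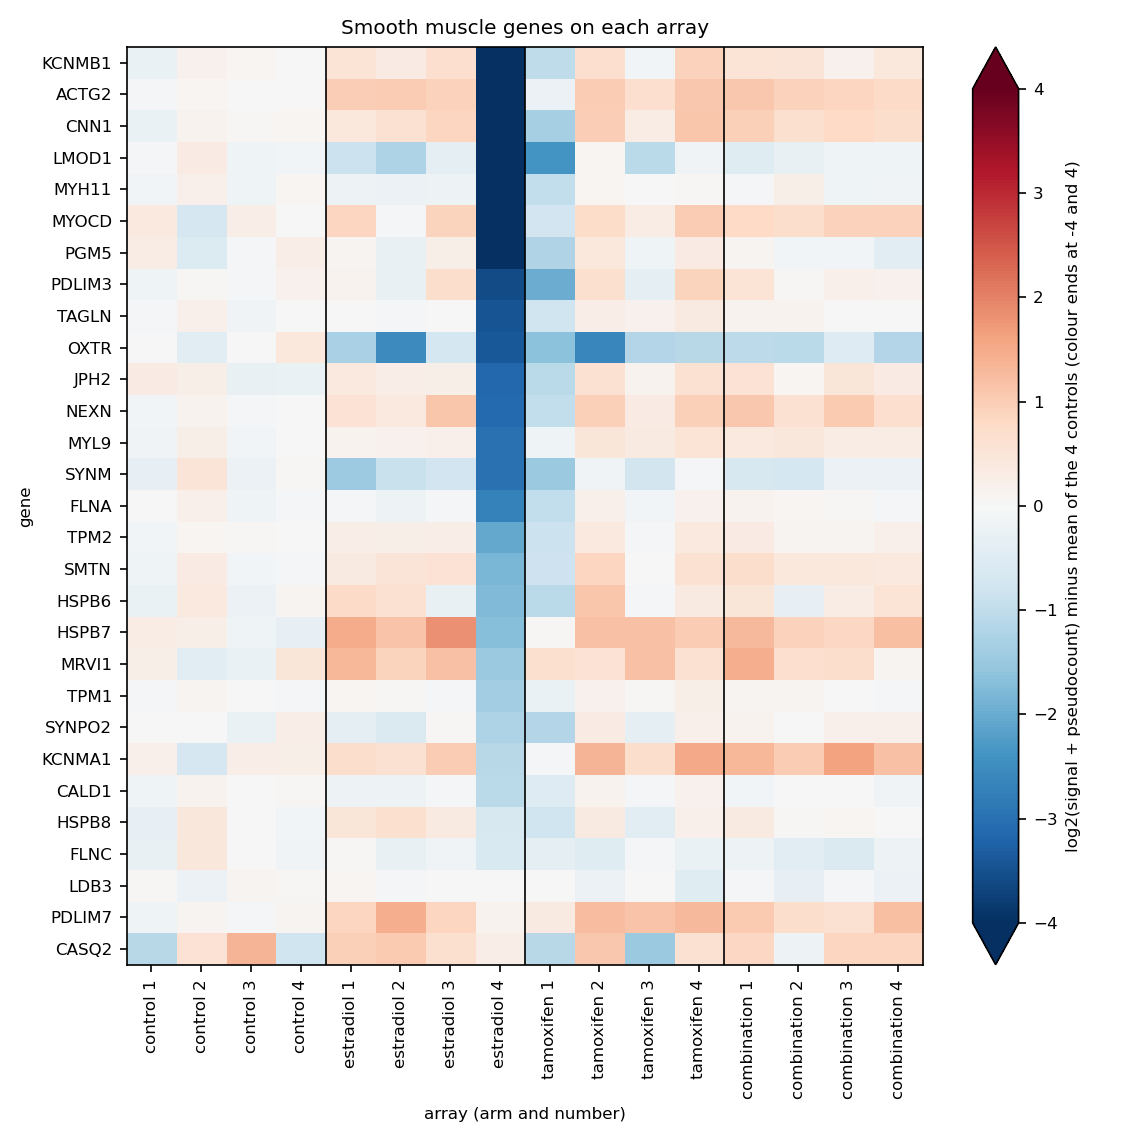
Each of the 29 smooth muscle genes (rows, ordered by their difference from the control mean in estradiol 4) on each of the 16 arrays (columns, grouped by arm), coloured by its level minus the mean of the 4 controls on the log2 scale, with colours ending at -4 and 4. The column of estradiol 4 is blue for most genes and that of tamoxifen 1 is paler blue, while HSPB7, KCNMA1 and PDLIM7 are red on most other treated arrays and OXTR is blue on all 12.

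In estradiol 4 the median difference of the 29 genes from the mean of the other 3 arrays of the arm was -2.58, against 0.04 over all genes tested. The array had the lowest level of its arm for 28 of the 29, which held for 27.9% of all genes, and the lowest of all 16 arrays for 25 of the 29, against 10.8% of all genes. Differences of more than 2-fold below the rest of the arm were seen for 23 of the 29 genes and for 4.75% of all genes. Among the 50 genes that lay furthest below the rest of the arm, 11 were smooth muscle genes.

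Among the 6 members given here KCNMB1 was furthest below the rest of the arm and TAGLN least. KCNMB1, the beta subunit of the large-conductance calcium-activated potassium channel, had a deposited signal of 10.4 in estradiol 4 and a mean of 2301 on the other 3 arrays, a ratio of 220, and ranked 1st among all genes from the bottom. ACTG2, the gamma smooth muscle actin, followed at 123 against 10855, a ratio of 88. CNN1, the thin-filament protein calponin 1, stood at 47.9 against 3027, and MYOCD at 31.7 against 1476. MYH11, the smooth muscle myosin heavy chain that defines this lineage, stood at 339 against 8858, a ratio of 26.1. TAGLN, the actin-binding protein transgelin, stood at 1001 against 10832, a ratio of 10.8.

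Other members lay closer to the rest of the arm. LDB3, a Z-disc linker also made in striated muscle, differed by -0.025 from the other 3 arrays, and FLNC, a filamin, by -0.48. CASQ2, a calcium-binding protein of the sarcoplasmic reticulum, differed by -0.62, and CALD1, the actin-binding caldesmon that many cell types make, by -0.91. For LDB3, FLNC and CALD1 the brightest probe set was not the one that fell most. A dimmer FLNC probe set differed by -1.70 in estradiol 4, a dimmer LDB3 probe set by -1.20, and the 5 dimmer CALD1 probe sets by -1.11 to -2.04. Over the 32 further probe sets of 14 members that passed the filter, 31 were lower in estradiol 4 than on the rest of the arm, 25 of them by more than 2-fold.

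Tamoxifen 1 showed a smaller deficit over much of the same list. The median difference from the other 3 tamoxifen arrays was -1.15, against 0.036 over all genes, and 24 of the 29 genes were lowest of their arm there, against 29.2% of all genes. The deficit passed 2-fold for 20 of the 29 genes, against 3.44% of all genes. It was deepest for PDLIM3, an actinin-associated LIM protein, at -2.35, for CNN1 at -2.14 and for LMOD1, the actin nucleator leiomodin 1, at -2.02. MYH11 differed by -1.02 and TAGLN by -1.06. OXTR at 0.0077, FLNC at -0.099, MRVI1 at -0.13 and LDB3 at 0.22 did not follow.

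Across the 29 genes the deficits on both arrays had a Pearson r of 0.58 and a Spearman rho of 0.60, given as a description, since genes of an array share its RNA and its scaling. The deficit was the larger in estradiol 4 for 27 of the 29 genes. Signal near background sets a lower end to a deficit on these arrays, so the differences of KCNMB1 and OXTR in estradiol 4, at signals of 10.4 and 4.64, may understate it.

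**Figure D2:**
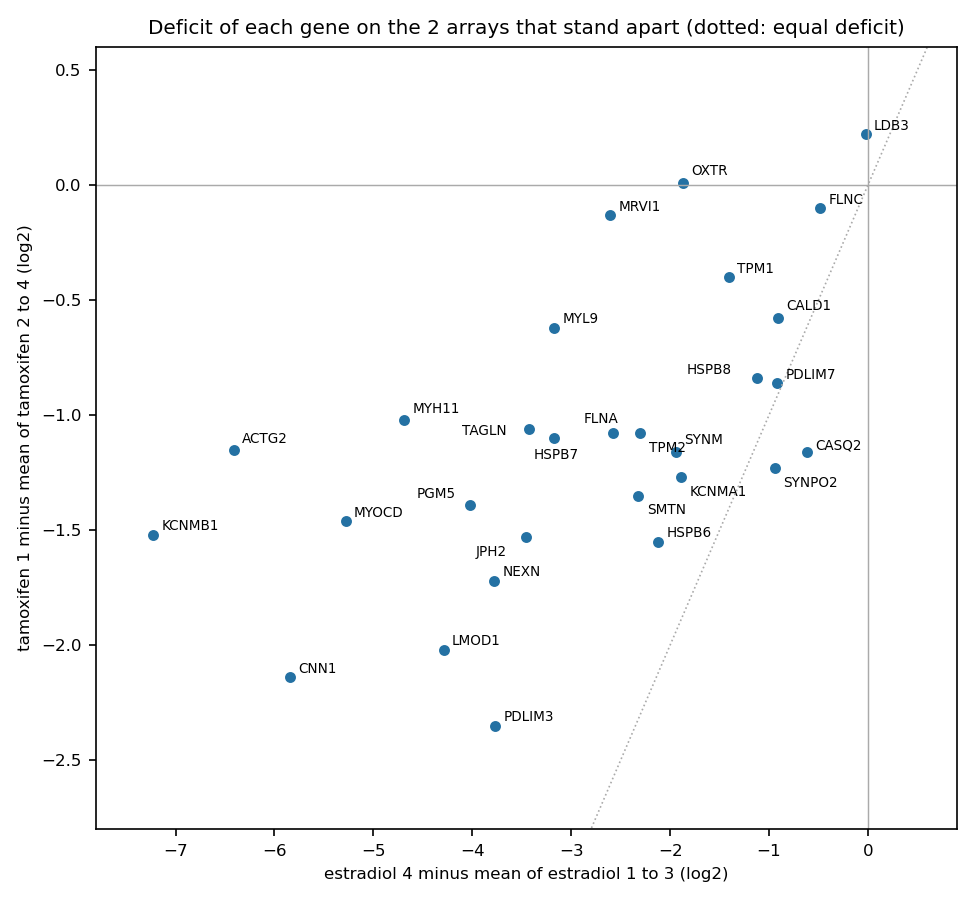
Each point is 1 of the 29 genes, with its level in estradiol 4 minus the mean of estradiol 1 to 3 on the horizontal axis and its level in tamoxifen 1 minus the mean of tamoxifen 2 to 4 on the vertical axis, both on the log2 scale; the dotted line marks equal deficits. Most points lie left of that line, from LDB3 near 0 on both axes to KCNMB1 at -7.23 and PDLIM3 at -2.35.

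Markers of other tissue compartments moved on the same arrays. The 12 tested epithelial markers had their highest medians over the control mean on these arrays, 2.23 in estradiol 4 and 2.14 in tamoxifen 1, and the summed signal of all 14 annotated epithelial markers was 18305 and 21087 there against 5389 to 5564 in the controls. The 14 endometrial stroma markers had medians of 1.14 and 0.61, near the other arrays of their arms, but single markers differed. DCN read 11.13 and 11.21 on these 2 arrays, against 12.28 to 12.90 and 12.35 to 13.05 on the rest of their arms. MME read 11.48 and 11.23, against at most 10.96 and 10.74. Of the 14, 1 was lowest and 4 highest of all arrays in estradiol 4, beside 10.8% and 13.8% of all genes. In tamoxifen 1 these were 2 and 0, beside 6.56% and 7.77%. In estradiol 4 and tamoxifen 1 the 12 endothelial markers had medians of -0.92 and -0.58. Those of the 8 pericyte and vessel wall markers were -0.82 and 0.014, and those of the 7 leukocyte markers -0.92 and -1.05. The endothelial and leukocyte values of these arrays were not all apart from the rest: estradiol 1, estradiol 2 and combination 1 had endothelial medians of -0.56, -0.64 and -0.60, and combination 2 and combination 3 leukocyte medians of -0.81 and -0.96. The actin control transcript, whose 3' over 5' signal reflects RNA quality, had a log2 ratio of 0.83 in estradiol 4 against 0.41 to 0.54 in estradiol 1 to 3, and of 0.53 in tamoxifen 1 against 0.47 to 0.57 in the rest of its arm. The part that these compartments and RNA quality had in the smooth muscle values was not tested.

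Tamoxifen 2 stood apart in another muscle. Of 15 striated muscle markers with a probe set, 12 were highest there. Myoglobin (MB) reached 11.79 against at most 5.92 on the other 15 arrays, and the fast skeletal myosin light chain MYL1 11.09 against at most 4.05. The muscle creatine kinase CKM reached 9.99 against at most 5.68. On that array 6 of the 29 smooth muscle genes were at their highest, SMTN, SYNPO2, FLNA, HSPB6, PGM5 and JPH2, several of which skeletal or cardiac muscle also makes, beside 4.05% of all genes. Tamoxifen 4, with a median of the striated markers of 0.59, held 10 of the 29 at their highest, beside 2.85% of all genes. Whether striated tissue contributed to these 6 was not tested, and the comparisons that use tamoxifen 2 are also given without it where a call changes.

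**Figure D3:**
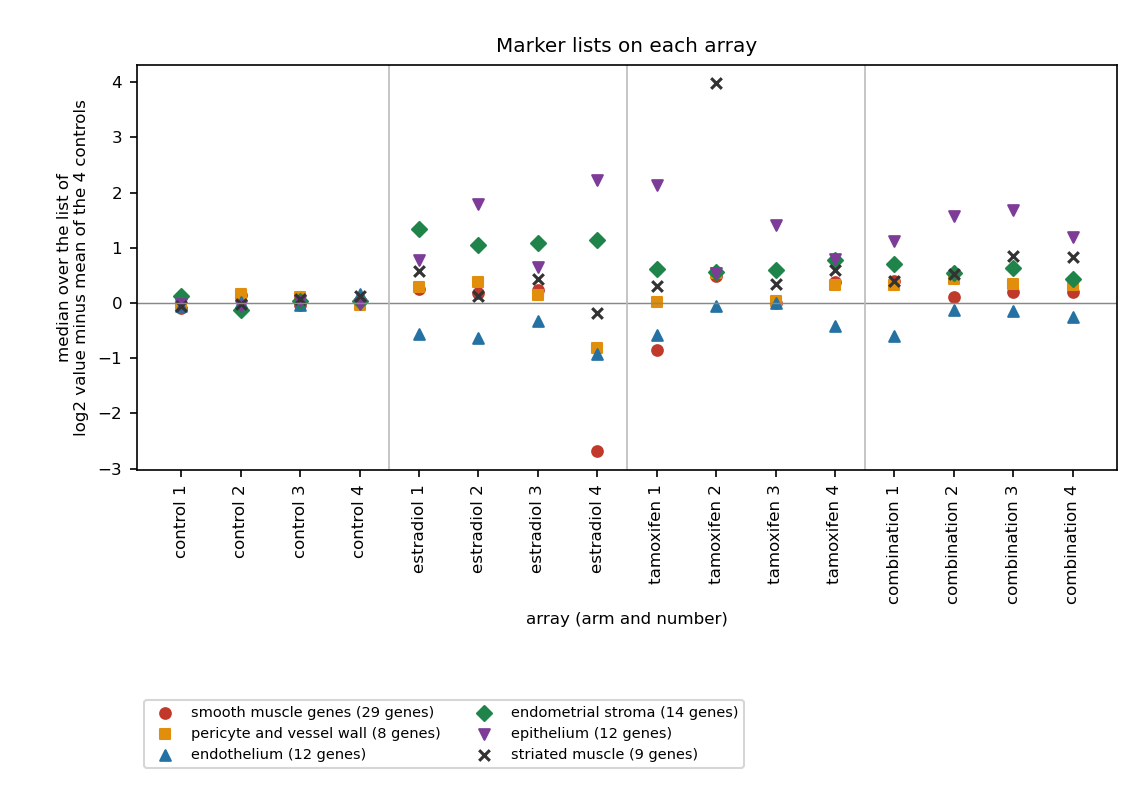
For each array (horizontal axis, by arm and number) the median over a marker list of the level minus the mean of the 4 controls, on the log2 scale, with 1 symbol per list. The smooth muscle genes drop to -2.69 in estradiol 4 and -0.85 in tamoxifen 1, where the epithelial markers reach 2.23 and 2.14, and the striated muscle markers reach 3.98 in tamoxifen 2.

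The comparison of each drug arm with placebo asks how the postmenopausal tissue responds to that treatment. With all 16 arrays few of the 29 genes passed the threshold, an adjusted p under 0.05 from limma with Benjamini-Hochberg adjustment over all 31660 probe sets tested. With estradiol 1 rose and 2 fell, beside 16.5% of all genes called higher and 13.2% called lower. With tamoxifen 1 rose and 1 fell, beside 8.59% and 7.64%. With the combination 2 rose and none fell, beside 10.6% and 9.09%, and 3 had an unadjusted p under 0.05. Each of these counts is a smaller share of the 29 than the share of all genes called in that direction.

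The 2 arrays enter the spread that limma pools over all arms, so each comparison is given both ways. Without estradiol 4 and tamoxifen 1 the median standard error (SE) of the estradiol comparison over the 29 genes went from 0.49 to 0.18. Those arrays were left out for their values of these genes, which narrows the spread by construction. The combination and control arms contain neither array, and a fit of their 8 arrays alone needed no such choice. In that fit 10 of the 29 genes were higher with the combination, beside 12.2% of all genes, and 1 was lower, beside 9.73%. The fit without the 2 arrays called 9 higher and none lower, beside 12.9% and 11.2%, and all 9 were among those 10, KCNMB1 being the addition. For 10 of the 29 genes all 4 combination arrays lay above all 4 controls, beside 15.2% of all genes, and for 1, OXTR, all lay below, beside 13.9%. With estradiol and all arrays 1 gene lay wholly above the controls and 4 wholly below, beside 15.4% and 13% of all genes, and with tamoxifen 2 and 1, beside 11.2% and 11.6%.

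With the 2 arrays left out, 7 genes rose and 3 fell with estradiol, beside 15.8% and 13% of all genes. With tamoxifen 7 rose and 1 fell, beside 7.58% and 6.3%. The median of the 29 differences from control was 0.25 with estradiol, 0.26 with tamoxifen and 0.25 with both, against 0.011, -0.021 and -0.013 over all genes; with all arrays it was -0.53, -0.0025 and 0.25. The 3 comparisons share the control arrays. ACTG2, CNN1, HSPB7, KCNMA1, NEXN and PDLIM7 were called higher in each of them. The share of all genes called higher in all 3 was not computed, so these 6 are not read as a result about the list. A measure of RNA quality moved with treatment beside these genes. For the actin control transcript, the 3' probe set exceeded the 5' one by 0.92 ± 0.11 (SD, n = 4) on the log2 scale on the control arrays, by 0.57 ± 0.18 with estradiol, where estradiol 4 read 0.83, by 0.52 ± 0.043 with tamoxifen and by 0.55 ± 0.075 with both drugs. Its part in the differences from control was not tested.

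**Figure D4:**
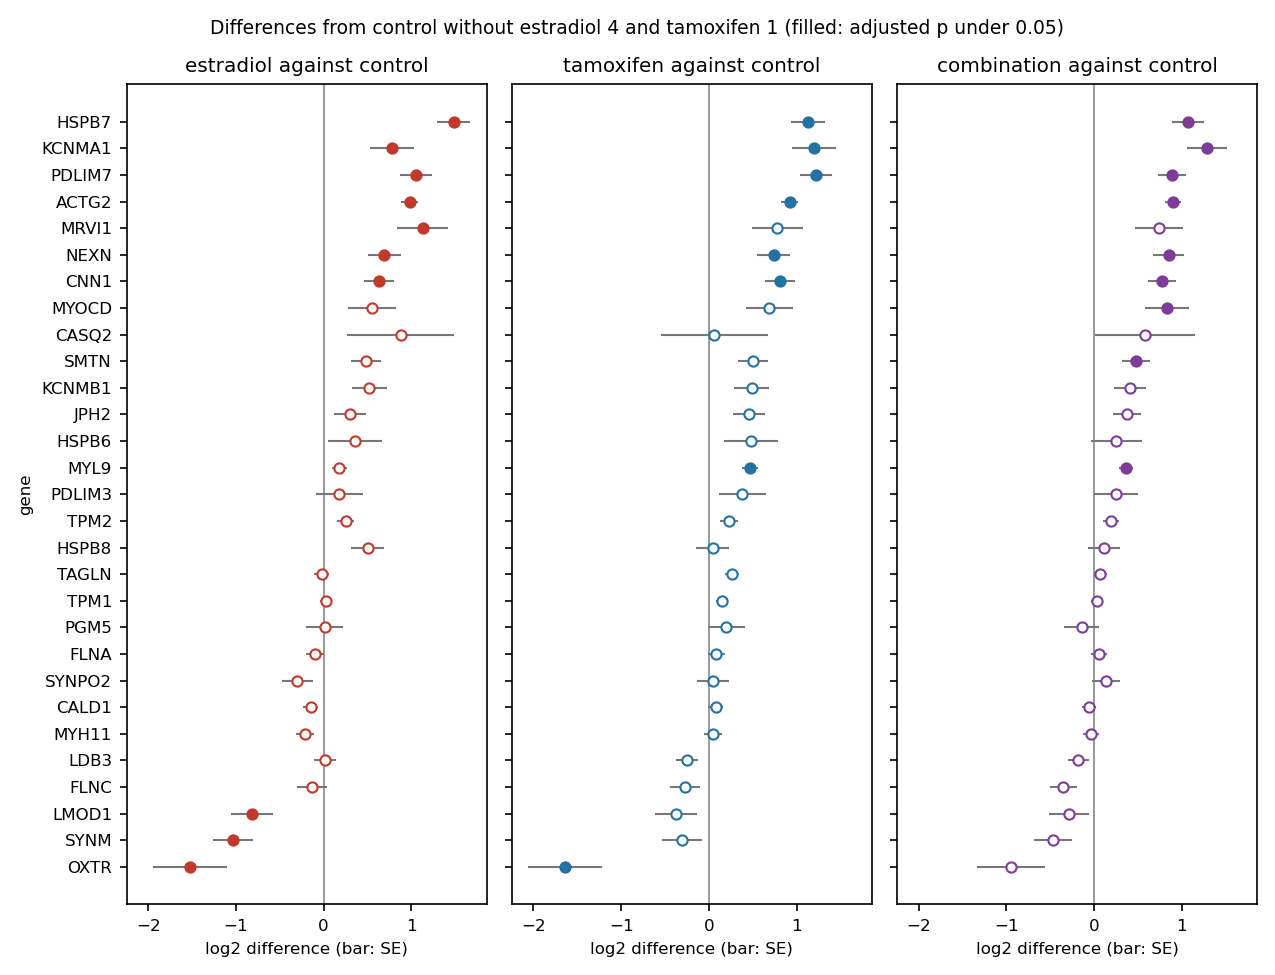
Difference from control of each of the 29 genes (rows) on the log2 scale, fitted without estradiol 4 and tamoxifen 1, in 1 panel per treated arm; bars are the SE and filled points passed the threshold. HSPB7, KCNMA1, PDLIM7, ACTG2, NEXN and CNN1 are filled on the right in all 3 panels, MYH11 and TAGLN lie near 0, and OXTR lies furthest left.

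Among the thick filament genes, MYH11 was not called in any comparison with control. Its level was 13.22, 13.51, 13.16 and 13.40 in the controls and 13.12, 13.10, 13.12 and 8.42 with estradiol. It was 12.35, 13.41, 13.32 and 13.38 with tamoxifen and 13.27, 13.56, 13.15 and 13.19 with the combination. Outside estradiol 4 and tamoxifen 1 all arrays lay within a narrow band, with estradiol 1 to 3 just under the lowest control. With all arrays it differed from control by -1.38 (SE 0.75, adjusted p = 0.195, limma) with estradiol. Without the 2 arrays it differed by -0.21 (SE 0.10), 0.046 (SE 0.10) and -0.033 (SE 0.092) for the 3 treatments, with adjusted p from limma of 0.145, 0.811 and 0.842. MYL9, the regulatory light chain that myosin light chain kinase phosphorylates, rose by 0.47 with tamoxifen and 0.36 with the combination in the fit without the 2 arrays. With all arrays these were 0.31 and 0.36 (adjusted p = 0.734 and 0.68, limma).

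Of the 9 thin filament genes, ACTG2 showed the tightest rise. Its level was 12.35, 12.51, 12.44 and 12.42 in the controls. It was 13.40, 13.46, 13.36 and 7.0 with estradiol, and 12.20, 13.43, 13.11 and 13.52 with tamoxifen. The combination arrays read 13.51, 13.34, 13.28 and 13.21. All 10 treated arrays other than estradiol 4 and tamoxifen 1 thus lay above all 4 controls, and the combination arm did not overlap the control arm. ACTG2 without the 2 arrays was higher by 0.98 (SE 0.096, adjusted p = 4.83e-05, limma) with estradiol, a 1.97-fold change. It was higher by 0.92 (SE 0.096) with tamoxifen and by 0.90 (SE 0.089) with the combination, adjusted p = 0.000261 and 6.02e-05. With all 16 arrays the estradiol difference was -0.63 (SE 1.02, adjusted p = 0.699), so estradiol 4 alone turned its sign. A dimmer ACTG2 probe set rose by 1.63, 1.43 and 1.41 without the 2 arrays.

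CNN1 was at 10.67, 11.07, 10.97 and 11.01 in the controls and at 11.87, 11.57, 11.73 and 11.62 with the combination. It read 11.36, 11.53, 11.78 and 5.72 with estradiol and 9.59, 11.92, 11.24 and 12.05 with tamoxifen. As with ACTG2, the array estradiol 4 and the array tamoxifen 1 were alone among the treated in lying below the controls. Without these arrays it rose by 0.63, 0.81 and 0.77 with estradiol, tamoxifen and the combination, with adjusted p from limma of 0.0167, 0.00975 and 0.0046. With all arrays its differences were -0.83, 0.27 and 0.77 (adjusted p = 0.577, 0.887 and 0.641). NEXN, the actin-binding protein nexilin, rose by 0.69, 0.74 and 0.85 in the same fit. With all arrays it was not called and differed by -0.25, 0.31 and 0.85 (adjusted p = 0.82, 0.804 and 0.421, limma), so its sign with estradiol turned. Without tamoxifen 2 as well as the 2 arrays, its rise with tamoxifen was not called. SMTN, smoothelin, rose by 0.48 with the combination (adjusted p = 0.0473, and 0.505 with all arrays). The tropomyosins TPM1 and TPM2 and the caldesmon gene CALD1 differed by 0.034, 0.19 and -0.057 with the combination and were not called. Single dimmer probe sets were called. With estradiol and all arrays 1 of CALD1 differed by -0.83 and 1 of TPM2 by -0.70 (adjusted p = 0.0143 and 0.0256, limma). Without the 2 arrays 1 of TPM1 rose by 0.33 with estradiol, and 1 of SMTN by 0.70, 0.61 and 0.61 with the 3 treatments. The other dimmer probe sets of these 4 genes were not called.

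TAGLN was not called either through its brightest probe set. It read 13.37, 13.62, 13.30 and 13.42 in the controls and 13.57, 13.58, 13.41 and 13.42 with the combination. With estradiol it read 13.42, 13.35, 13.44 and 9.97, and with tamoxifen 12.63, 13.68, 13.59 and 13.80. Its differences without the 2 arrays were -0.024, 0.26 and 0.069, with adjusted p from limma of 0.868, 0.0556 and 0.572. A dimmer TAGLN probe set differed by 0.36, 0.49 and 0.35 in that fit and was called with tamoxifen (adjusted p = 0.0481, limma). With all arrays the dimmer probe set was not called. LMOD1 went the other way from ACTG2 with estradiol: the 4 controls read from 11.15 to 11.66 and estradiol 1 to 3 read 10.48, 10.11 and 10.97. It fell by 0.82 (SE 0.24, adjusted p = 0.0257) without the 2 arrays. With all arrays the difference was -1.89 (adjusted p = 0.0835, limma) and was not called.

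Within 1 array, ACTG2 and MYH11 come from the same RNA. The level of ACTG2 minus that of MYH11, less the mean of that difference in the controls, was -0.11 to 0.17 in the 4 controls. It was 1.18, 1.26, 1.13 and -0.53 with estradiol, 0.74, 0.91, 0.68 and 1.04 with tamoxifen, and 1.14, 0.67, 1.02 and 0.91 with the combination. On this scale tamoxifen 1 lay with the other treated arrays, above every control, and estradiol 4 lay below every control. CNN1 minus MYH11 was above every control on 10 of the 12 treated arrays and below on estradiol 4 and tamoxifen 1. LMOD1 minus MYH11 was below every control on 8 of the 12 treated arrays and above on none. Other members differed in this. MYL9, PDLIM7, KCNMA1 and HSPB7 minus MYH11 were above every control on all 12 treated arrays and TAGLN on 11, while OXTR was below on 9. MYH11 itself was low in estradiol 4, at 8.42 against 13.10 to 13.12 in estradiol 1 to 3, which raises every difference from it there. In estradiol 4 CALD1 and PDLIM7 minus MYH11 read 3.83 and 5.02, and LDB3, FLNC, SYNM and OXTR 4.89, 4.29, 1.93 and 1.52. Only ACTG2, LMOD1, CNN1 and KCNMB1 were negative there, at -0.53, -0.22, -0.31 and -1.82. The place of estradiol 4 above the controls is thus not read as a response to treatment. The share of all genes on this scale was not computed, so these counts are not read as a result about the list.

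**Figure D5:**
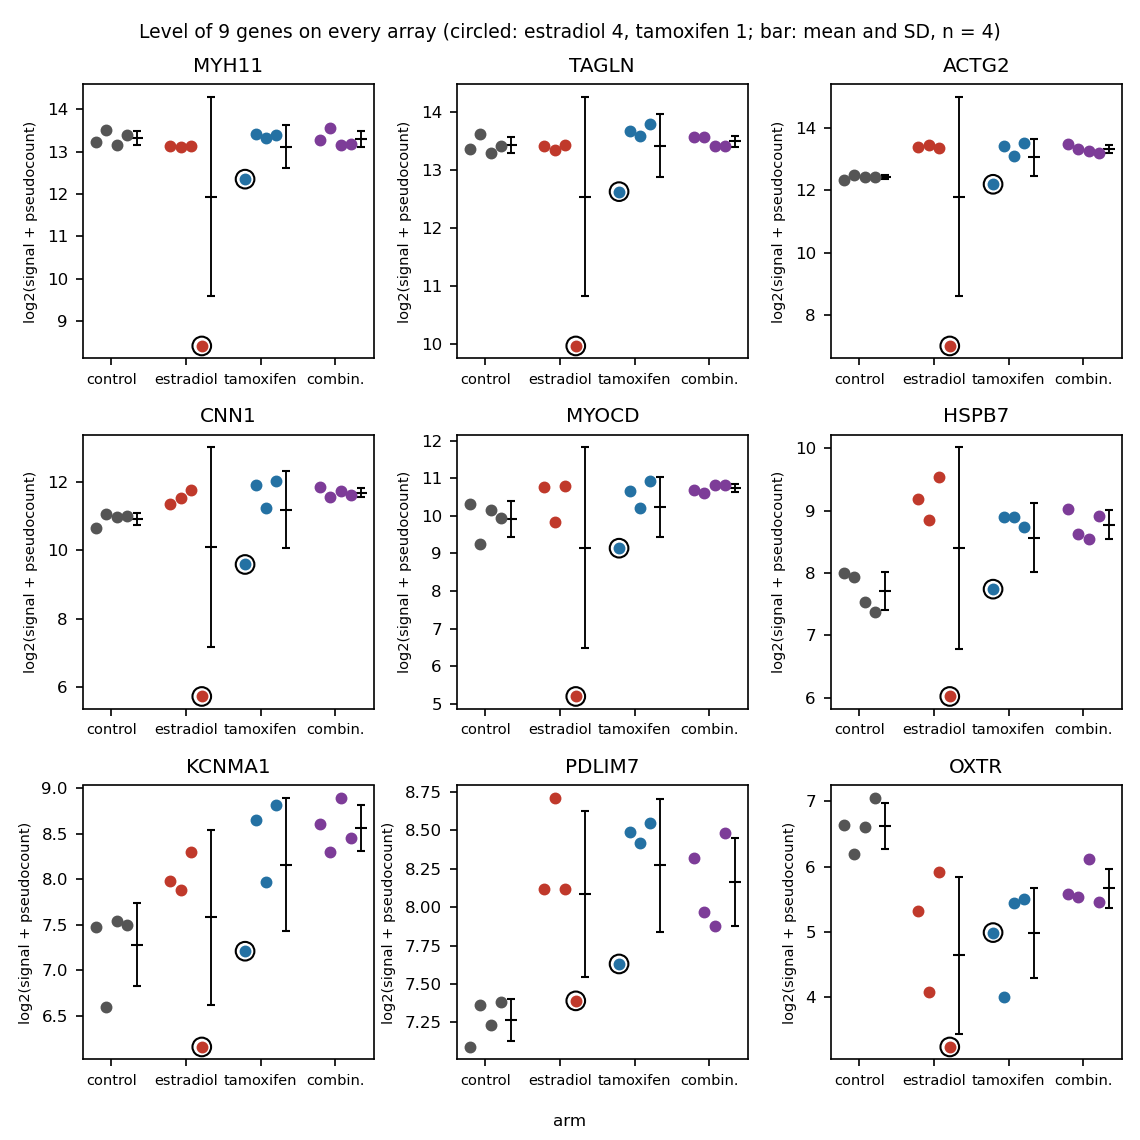
Level of 9 smooth muscle genes (log2(signal + pseudocount), vertical axes with a range of their own) on every array by arm; bars give the mean and SD of all 4 arrays of an arm, and circles mark estradiol 4 and tamoxifen 1. ACTG2, CNN1, HSPB7 and PDLIM7 are above the controls on the uncircled treated arrays, MYH11 is not, and OXTR is below the controls on all treated arrays.

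Among the 8 intermediate filament and linker genes, PDLIM7, a PDZ and LIM protein of actin filaments, was the one called in every comparison with control. Its level was 7.09, 7.36, 7.23 and 7.38 in the controls and 8.12, 8.71, 8.12 and 7.39 with estradiol. It was 7.63, 8.49, 8.42 and 8.55 with tamoxifen and 8.32, 7.97, 7.88 and 8.48 with the combination. All 12 treated arrays were above all 4 controls, with estradiol 4 at 7.39 next to the highest control at 7.38. With all arrays PDLIM7 rose by 0.82 (SE 0.25, adjusted p = 0.026, limma) with estradiol, 1.00 (SE 0.25, adjusted p = 0.0169) with tamoxifen and 0.89 (SE 0.25, adjusted p = 0.0255) with the combination. Without the 2 arrays the rises were 1.05, 1.22 and 0.89. With all but 1 array the estradiol call was lost without control 1, control 3, estradiol 1 or estradiol 2 (adjusted p up to 0.0906, limma), the tamoxifen call without tamoxifen 4 (0.0507), and the combination call without control 1, control 3, combination 1 or combination 4 (up to 0.0701). Its dimmer probe set read 0.34, 0.70 and 0.59 with all arrays and was not called there, and read 0.83, 0.92 and 0.59 without the 2 arrays, called in all 3.

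SYNM, the intermediate filament protein synemin, fell with estradiol. It read 9.97, 10.82, 10.04 and 10.33 in the controls and 8.83, 9.41, 9.53 and 7.32 with estradiol, with no overlap. With tamoxifen it read 8.82, 10.15, 9.55 and 10.25, and with the combination 9.64, 9.58, 10.04 and 10.05, and both arms overlapped the controls. The estradiol difference was -1.52 (SE 0.41, adjusted p = 0.0136, limma), and -1.03 (SE 0.23, adjusted p = 0.00641) without the 2 arrays. The other 6 linkers were not called through their brightest probe sets. With the combination PDLIM3, SYNPO2 and FLNA differed by 0.25, 0.13 and 0.051, and PGM5, LDB3 and FLNC by -0.14, -0.18 and -0.35. For FLNC the probe sets disagreed: a dimmer one differed by 1.12 with the combination (adjusted p = 0.0405, limma, all arrays).

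Of the 3 small heat shock proteins, which bind actin and protect it under load, HSPB7 was called in the fit without the 2 arrays. Its level was 8.0, 7.93, 7.53 and 7.37 in the controls and 9.19, 8.85, 9.54 and 6.02 with estradiol. With tamoxifen it was 7.74, 8.89, 8.89 and 8.73, and with the combination 9.02, 8.62, 8.54 and 8.92. The combination lay wholly above the controls, as did each other treated array but estradiol 4 and tamoxifen 1. Without these arrays HSPB7 was higher by 1.48 (SE 0.19, adjusted p = 0.000232, limma) with estradiol, by 1.13 (SE 0.19, adjusted p = 0.0034) with tamoxifen and by 1.07 (SE 0.18, adjusted p = 0.00125) with the combination. With all arrays the differences were 0.69, 0.85 and 1.07 and were not called (adjusted p = 0.391, 0.326 and 0.203, limma). HSPB6 and HSPB8 differed by 0.25 and 0.11 with the combination and were not called.

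OXTR, the receptor among the 6 genes of calcium, potassium and hormone handling, fell. Its level was 6.64, 6.20, 6.60 and 7.05 in the controls and 5.32, 4.08, 5.92 and 3.24 with estradiol. It was 4.99, 4.01, 5.44 and 5.51 with tamoxifen and 5.58, 5.53, 6.11 and 5.46 with the combination. All 12 treated arrays lay below all 4 controls. The estradiol difference was -1.98 (SE 0.47, adjusted p = 0.00677, limma), and -1.52 (SE 0.42, adjusted p = 0.0191) without the 2 arrays. The tamoxifen difference was -1.63 (SE 0.47, adjusted p = 0.0328), and -1.15 (adjusted p = 0.107) when tamoxifen 2 was also left out. With single arrays left out of all 16, the tamoxifen call was lost without control 1, 3 or 4 or tamoxifen 1 or 2 (adjusted p up to 0.0849). The combination difference was -0.95 (SE 0.47, adjusted p = 0.188), and the fit of those 2 arms alone called it at adjusted p = 0.0208. These signals are dim, so the log2 scale with its pseudocount understates the change. OXTR also passed the filter on low signal narrowly, with a mean over all arrays of 5.48 against a cut of 5.36. Its control mean was 6.62 and its combination mean 5.67, while the means of both single-drug arms, 4.64 and 4.99, lay under the cut. A dim gene kept through its controls in this way can only appear as a fall.

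KCNMA1 encodes the pore of the channel whose beta subunit is KCNMB1. It read 7.48, 6.60, 7.54 and 7.50 in the controls and 8.61, 8.30, 8.89 and 8.45 with the combination. With estradiol it read 7.98, 7.88, 8.30 and 6.16, and with tamoxifen 7.21, 8.65, 7.97 and 8.81. The combination arm lay above all controls. The combination difference was 1.29 (SE 0.42, adjusted p = 0.0484, limma) with all arrays and had adjusted p = 0.00218 without the 2 arrays, where estradiol and tamoxifen differed by 0.78 and 1.20 (adjusted p = 0.0372 and 0.00936). These were 0.31 and 0.88 with all arrays (adjusted p = 0.639 and 0.174). With all arrays the combination call was close to the threshold and was lost in 12 of the 16 fits that each left out 1 array (adjusted p up to 0.121, without control 2). One of its other probe sets rose in all 3 comparisons without the 2 arrays, by 0.68, 0.76 and 0.71, and the dimmest in none. MRVI1, a partner of the inositol trisphosphate receptor in cyclic GMP signalling, rose by 1.13 with estradiol in that fit (adjusted p = 0.0129) and differed by 0.47 with all arrays (adjusted p = 0.511). With the combination KCNMB1, CASQ2 and JPH2, a junctional membrane protein, differed by 0.41, 0.58 and 0.37, and of these KCNMB1 was called in the fit of those arms alone (adjusted p = 0.0404).

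MYOCD read 10.32, 9.24, 10.17 and 9.94 in the controls and 10.70, 10.61, 10.83 and 10.83 with the combination. With estradiol it read 10.77, 9.83, 10.80 and 5.19, and with tamoxifen 9.14, 10.66, 10.22 and 10.94. The combination arm lay above the controls, and the single-drug arms overlapped them. Its combination difference was 0.83 (SE 0.88, adjusted p = 0.569, limma) with all arrays, and 0.83 (SE 0.25, adjusted p = 0.0305) without the 2 arrays.

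The combination was compared with each drug to ask what tamoxifen adds to low-dose estradiol and the reverse. None of the 29 genes was called in limma when the combination was set against estradiol or against tamoxifen, or when the single drugs were set against each other. The background there was low, at 1.33%, 0% and 0.71% of all genes in either direction, and 4, 0 and 1 of the 29 had an unadjusted p under 0.05. The median difference over the 29 genes was 0.85 for the combination against estradiol with all arrays and 0.062 without the 2 arrays, against -0.023 and -0.019 over all genes. Without the 2 arrays again none was called, beside 1.05%, 0% and 0.56% of all genes, and the unadjusted counts were 4, 1 and 6.

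The interaction asks whether the combination's difference from control equals the sum of the single-drug differences. OXTR departed from that sum, by 2.67 (SE 0.67, adjusted p = 0.0228, limma) with all arrays, beside 4.77% of genes called higher and 6.55% called lower. The single drugs lowered OXTR by more, added together, than the combination did. Its signals on the single-drug arrays were dim, from 4.64 to 55.7, which limits how far falls can add up. The part of that limit in the term was not tested. Without the 2 arrays the OXTR term was 2.20 (SE 0.60, adjusted p = 0.0409), beside 3.92% higher and 5.03% lower. It was 1.71 (adjusted p = 0.0824) without tamoxifen 2 as well, and had adjusted p = 0.0503 where estradiol 2 alone was left out.

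In the fit without the 2 arrays the term was negative for 3 of the genes that rose with each treatment, HSPB7 at -1.54 (SE 0.27, adjusted p = 0.00735), PDLIM7 at -1.37 (SE 0.25, adjusted p = 0.00838) and ACTG2 at -1.0 (SE 0.14, adjusted p = 0.00302). The combination's rises of 1.07, 0.89 and 0.90 were thus under the sums of the single-drug rises. All 3 terms were also called without tamoxifen 2. With all 16 arrays none of the 3 was called: the terms were -0.47 for HSPB7, -0.93 for PDLIM7 and 0.89 for ACTG2 (adjusted p = 0.753, 0.11 and 0.747, limma).

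A list of 62 further genes of contraction, calcium signalling and the actin cytoskeleton gave 39 tested. With all arrays 2 rose and 6 fell with estradiol, 2 rose and 2 fell with tamoxifen, and 2 rose and 2 fell with the combination. Set against the shares of all genes called, 16.5% higher and 13.2% lower, 8.59% and 7.64%, and 10.6% and 9.09%, the 6 of 39 that fell with estradiol were near the background and the other counts were below it. Their median differences were -0.13, -0.071 and 0.057. CRIP1, a small LIM protein, rose by 1.18, 1.24 and 1.38 in the 3 comparisons with control, on all 12 treated arrays above the controls. CAMK2D, a calcium/calmodulin-dependent kinase, fell by 0.64, 0.61 and 0.43, and MRTFB, a coactivator of serum response factor like MYOCD, fell by 0.40, 0.38 and 0.44.

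The other genes of the list that fell with estradiol were the calcium channels ITPR1, by 0.96, and CACNA1C, by 0.81, the calcium sensor STIM1, by 0.60, and the kinase ROCK1, by 0.31. TPM3, a tropomyosin of non-muscle and slow muscle cells, rose by 0.65 with estradiol, and ATP2A2, the calcium pump of the sarcoplasmic reticulum, by 0.36 with tamoxifen and 0.39 with the combination. With both arrays left out the counts were 4 and 6, 3 and 1, and 4 and 2, and the MRTFB difference with tamoxifen was not called. The shares of all genes called higher and lower in that fit were 15.8% and 13%, 7.58% and 6.3%, and 12.9% and 11.2%. These counts were thus near or below the background. In estradiol 4, 16 of these 39 genes were at their lowest of all arrays, beside 10.8% of all genes, with a median of -0.42 from the control mean.

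Markers of the other compartments moved with treatment beside the smooth muscle genes, and their part in those values was not tested. With all arrays 8, 6 and 8 of 12 epithelial markers rose with estradiol, tamoxifen and the combination, and 11, 7 and 7 of 14 endometrial stroma markers rose. EHF, an epithelial transcription factor, and COL1A2, a fibrillar collagen chain, had among the smallest p of their lists. Of 12 endothelial markers 7 fell with estradiol and 1 with each other treatment. The shares of all genes called higher were 16.5%, 8.59% and 10.6% in these 3 comparisons and those called lower 13.2%, 7.64% and 9.09%, so that a count of 1 of 12 or 1 of 8 is near the background. Of 8 pericyte and vessel wall markers, which mark the mural cells of vessels, 1 fell with estradiol and 1 rose with the combination. Without the 2 arrays 2, 1 and 3 of these 8 rose, MCAM in all 3 comparisons by 0.56, 0.62 and 0.86, and KCNJ8 fell with estradiol and the combination. That fit called 15.8%, 7.58% and 12.9% of all genes higher, and 13% and 11.2% lower with estradiol and the combination. With 8 markers these counts are not read as a response of the list. With all arrays again, 2 of 7 leukocyte markers fell with tamoxifen and 3 with the combination. Of 9 tested striated muscle markers 2 rose with tamoxifen and 1 with the combination. Of 3 mesothelial markers 1 fell with estradiol, and 1 rose and 1 fell with the combination.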

How the data were processed

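One array was hybridised for each of 16 animals, and arrays were assigned to arms and numbers by their titles. The deposited values are intensities on a linear scale per probe set; GCOS, Affymetrix Expression Console and MAS5 are named in the submitters' processing notes, with no versions. A mean trimmed by 2% per end equalled 250.0 for each array, so arrays had been scaled and every change is relative to its array's total. Median signals ran from 58.7 to 70.3, and the number of arrays limits the precision.

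Without the 99 control probe sets, values were taken to log2(signal + 4.80), the pseudocount being the 10th percentile, and the dimmest 40% by mean were dropped, which kept 31660. limma 3.58.1 in R 4.3.3 fitted a mean per arm to all 16 arrays (12 residual degrees of freedom), with a variance trend in eBayes, 7 comparisons and Benjamini-Hochberg adjustment at 0.05. The fit was tested on simulated data. A gene was read through its brightest single-symbol probe set; sequences and genome positions are not used here. The members, role groups and marker lists were chosen with earlier results of these data known, and no test of a list was made. Named with values were MYH11, ACTG2, CNN1, TAGLN, MYOCD, OXTR, the members called in any comparison, and the ends of each role group; HSPB7, NEXN, MRVI1, LMOD1, MYL9, SMTN and the further genes of contraction were chosen after their values were seen. Estradiol 4 and tamoxifen 1 were left out together because of their values of these genes, so that choice was not independent of the data. The adjusted p-values of the fit without them do not allow for it. Leaving out tamoxifen 2 as well was also added after seeing the data. The other alternatives were the pseudocount, the filter, quantile normalization, no variance trend, array weights, the mean of a gene's probe sets, the replicate number as a block, each array left out in turn, and fits of only the arms compared.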

Additional observations from a re-analysis of the deposited data

Results flagged for a closer look

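Each of the 29 genes was examined within each arm for an array far from the other 3, in 116 groups of 4. Chance marks about 1 in 20 where groups are independent. These are not, since the genes of an array share its RNA and its scaling, so marks on 1 array are not separate events. In all, 23 groups were marked, and that number is not read against the chance share. Of these, 14 were low values in estradiol 4: MYH11 at 8.42, ACTG2 at 7.0, CNN1 at 5.72, TAGLN at 9.97, MYL9 at 9.69, SMTN at 8.43, TPM1 at 11.81, TPM2 at 10.62, CALD1 at 11.91, FLNA at 10.15, KCNMB1 at 3.93, PGM5 at 7.35, JPH2 at 6.11 and MRVI1 at 5.37 on the log2 scale. In tamoxifen 1, MYH11 at 12.35, PDLIM7 at 7.63 and HSPB7 at 7.74 were far below the rest of the arm. In the combination arm, SMTN at 10.97 and HSPB8 at 10.33 in combination 1 were far above the others and CASQ2 at 7.31 in combination 2 far below. Control 2 was far above the other controls in TPM1, at 13.31, and far below in KCNMA1, at 6.60. Tamoxifen 3 was far above its arm in MRVI1, at 8.02.

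By the interaction term of limma, some genes were called as responding to one drug differently with and without the other. That of OXTR was 2.67 with all arrays (adjusted p = 0.0228) and 2.20 without estradiol 4 and tamoxifen 1 (adjusted p = 0.0409). In the latter fit the term was -1.37 for PDLIM7, -1.0 for ACTG2 and -1.54 for HSPB7, with adjusted p of 0.00838, 0.00302 and 0.00735. That fit called 3.92% of all genes higher and 5.03% lower. With all arrays OXTR was the only member called, beside 4.77% and 6.55% of all genes. The terms of PDLIM7 and HSPB7 were then -0.93 and -0.47, and that of ACTG2 was positive. The signals of OXTR are dim, which limits how far its falls can add up.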

How the results depend on the processing

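The counts of members past the threshold against control rested most on estradiol 4 and tamoxifen 1. Without both, the counts for estradiol, tamoxifen, the combination and the interaction were 10, 8, 9 and 4, and without tamoxifen 2 as well 11, 6, 9 and 3, against 3, 2, 2 and 1 with all arrays. Of all genes, the fit without both called 15.8% higher and 13% lower with estradiol and 7.58% and 6.3% with tamoxifen. It called 12.9% and 11.2% with the combination and 3.92% and 5.03% in the interaction. With all arrays these shares were 16.5% and 13.2%, 8.59% and 7.64%, 10.6% and 9.09%, and 4.77% and 6.55%. Shares for the other fits are not given here. With each array left out in turn the counts of members ran from 2 to 6, 1 to 4, 0 to 4 and 0 to 3, each highest without estradiol 4. For tamoxifen the count was 1 with the 60% dimmest probe sets left out and 1 with the mean of a gene's probe sets. For the combination it was 1 with a pseudocount of 1, without a filter, with quantile normalization and without a variance trend, 0 with the mean of a gene's probe sets, and 11 in the fit of only the arms compared. For the interaction it was 0 with the 60% dimmest left out and 2 with array weights. OXTR, at a mean of 5.48, is among those 60% and was not tested there. Its calls with tamoxifen and in the interaction thus could not be made in that fit. The 3 comparisons between treated arms gave a count of 0 in every fit run.

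Replicate numbers did not pair the animals: none of 24 pairs with the same number in 2 arms deviated together at r above 0.1 (-0.27 to 0.09). With the replicate number as a block the counts were 3, 2, 1 and 1, the KCNMA1 difference with the combination (adjusted p = 0.0754) no longer being called.

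Some signs turned, in members that were not called with all arrays. Without the 2 arrays this held for 13 of the 29 with estradiol, of which ACTG2, CNN1 and NEXN (-0.25 to 0.69) were then called, and for 10 with tamoxifen. For estradiol, ACTG2 was 0.26 with array weights; ACTG2, CNN1 and MYOCD were 0.98, 0.63 and 0.55 without the 2 arrays or the 3, and ran from -1.18 to 0.98, -1.39 to 0.63 and -1.32 to 0.55 with single arrays left out. For tamoxifen, MYH11 was 0.046 without the 2 arrays and 0.028 without the 3 (-0.31 to 0.046 with single arrays left out), and CNN1 ran from -0.012 to 0.81. TAGLN with tamoxifen was 0.065 with quantile normalization, 0.18 with array weights, 0.047 with the mean of its probe sets, 0.26 without the 2 arrays and 0.27 without the 3 (-0.13 to 0.26). MYH11 with the combination was 0.16 with quantile normalization and 0.0068 with array weights (-0.12 to 0.029). The cause was not tested.

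The calls of PDLIM7 were lost with the mean of its probe sets (adjusted p = 0.169, 0.0711 and 0.101 for estradiol, tamoxifen and the combination), and with estradiol also in the fit of only the arms compared (0.0504). Depth cannot be read from these files; dim genes such as OXTR are limited by background.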
